A study of Bos taurus with 16 samples.

Results

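The genes PCCA, PCCB, MCEE, MUT, ACSS1, ACSS2, ACACA and ECHS1, whose products act on acetate and propionate, were described in rumen papillae. They were chosen by function and found by their symbols in the exon labels of the deposited coverage table, which lists 133 exon regions for these 8 of 11996 genes. All 8 passed the filter on low values, as did 9443 genes in all.

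Papillae, the finger-like projections of the rumen wall, were taken from 16 crossbred steers aged 344 ± 48 days, with 1 library per animal. The 4 groups, of 4 steers each, combine high or low gain with high or low dry matter intake and are written here as high gain/high intake and so on. A steer entered a group by where its gain and intake placed it, and no treatment was given. All had free access to 1 ration of 57.35% corn, 30% distillers grains, 8% alfalfa, 4.25% of a commercial supplement and 0.4% urea. The series title puts the question as how the rumen transcriptome varies with feed intake and gain.

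Microbes in the rumen ferment feed to short-chain fatty acids, mainly acetate, propionate and butyrate, and the stratified epithelium of the papillae absorbs them. Propionate, once joined to coenzyme A, is carboxylated by propionyl-CoA carboxylase, a mitochondrial enzyme built from the biotin-bearing subunit encoded by PCCA and the subunit encoded by PCCB. The epimerase encoded by MCEE and the vitamin B12-dependent mutase encoded by MUT (MMUT in current RefSeq naming) then turn methylmalonyl-CoA into succinyl-CoA, which enters the citric acid cycle. Acetate is joined to coenzyme A by ACSS1 in mitochondria and by ACSS2 in the cytosol and nucleus. ACACA encodes the acetyl-CoA carboxylase that makes malonyl-CoA for fatty acid synthesis. ECHS1 encodes the short-chain enoyl-CoA hydratase of mitochondrial beta-oxidation, a step through which butyrate also passes.

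A level here is how many reads cover a base of the region on average, which the authors brought to almost equal totals across libraries, so levels of different genes are on a per-length scale. Each gene is represented by whichever of its exon regions had the highest mean. These regions are unlike, from 130 bases in PCCB to 4412 in ACSS2, and those of MCEE, ACSS1, ACSS2 and ECHS1 take in intron and intergenic bases. Within PCCB alone the region means ran from 5.09 to 40.8, so the order of genes also depends on the regions. Libraries held an estimated 11.9 to 21.2 M reads. In 5 libraries the first exons of genes were thinly covered: replicate 4 of high gain/high intake, replicates 2, 3 and 4 of high gain/low intake, and replicate 3 of low gain/low intake. Their first-exon index, the median log2 ratio of a gene's first exon to its other exons, was -2.85 to -2.06, against -1.41 to -0.60 in the other 11 libraries. In these 5 libraries 276 to 1210 of the 9443 tested genes were listed at 0, against 89 to 174 in the other 11. The labelled tissue was checked against fixed markers. The 12 markers of stratified epithelium summed to 1630 to 5616 per library, with KRT6A at 851 to 3380, while KRT4 was at 0 to 2.73. The 8 stromal markers summed to 207 to 1191, the 6 smooth muscle markers to at most 96.8 and the 6 endothelial markers to 8.13 to 27.0. Of 8 leukocyte markers 7 were in the file and summed to 2.50 to 26.7, with the B cell markers MS4A1 and CD79A listed at 0 in 13 and 12 libraries. Of 4 adipocyte markers, FABP4 (20.6 to 266) and PLIN1 (0.14 to 0.73) were in the file. In bulk tissue, fewer cells of a type and less RNA per cell cannot be told apart.

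The 8 genes spanned a wide range of levels. ECHS1 was highest, with a mean of 85.5 ± 26.7 (SD, n = 16 here and for the next 7 values), above 97.8% of the tested genes. PCCB followed at 40.8 ± 11.6, MUT at 38.5 ± 19.3 and PCCA at 32.3 ± 14.1, all 3 above 93% of tested genes. MCEE stood at 15.9 ± 7.59, ACSS2 at 6.0 ± 2.04 and ACACA at 2.86 ± 2.11. ACSS1 had the lowest mean at 0.403 ± 0.163, and only 2.50% of tested genes had a lower mean. The neighbours PCCB and MUT were not separated beyond their spread, with PCCB above MUT in 11 of 16 libraries, nor were MUT and PCCA, with MUT above PCCA in 8 of 16. ECHS1 exceeded PCCB in 14, PCCA exceeded MCEE in 12, MCEE exceeded ACSS2 in 16 and ACSS2 exceeded ACACA in 15 of 16 libraries. ACACA exceeded ACSS1 in 13 of 16, with the other 3 among the 5 libraries low in first exons.

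PCCA, the biotin-bearing subunit gene, was read in exon 22 (chromosome 12, 81140237 to 81140381, UMD3.1, exon with flanking intron). Its levels were 25.3, 31.4, 29.6 and 14.9 in replicates 1 to 4 of high gain/high intake, 49.0, 10.4, 21.1 and 39.9 in high gain/low intake, 39.8, 35.5, 38.8 and 23.3 in low gain/high intake, and 44.1, 48.6, 9.37 and 55.7 in low gain/low intake. The 4 lowest libraries were all among the 5 low in first exons, and the groups overlapped.

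PCCB, its partner, was read in exon 10 (chromosome 1, 134069911 to 134070040, exon with flanking intron). Levels were 19.1, 19.9, 41.8 and 53.3 in high gain/high intake, 45.9, 54.1, 41.7 and 47.3 in high gain/low intake, 27.2, 46.6, 38.8 and 25.8 in low gain/high intake, and 50.2, 40.7, 51.2 and 48.5 in low gain/low intake. All 8 low-intake libraries were above 40, while the 8 high-intake libraries ranged from 19.1 to 53.3.

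MCEE, the epimerase gene, was read in its exon 3, which runs to the end of the gene (chromosome 21, 27897847 to 27900363). Levels were 9.78, 9.29, 7.41 and 26.5 in high gain/high intake, 22.8, 17.8, 23.9 and 17.7 in high gain/low intake, 11.6, 9.63, 11.2 and 10.6 in low gain/high intake, and 15.1, 12.5, 34.7 and 13.6 in low gain/low intake. Among the 8 high-intake libraries all but replicate 4 of high gain/high intake lay below every low-intake library.

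MUT, the mutase gene, was read in exon 6 (chromosome 23, 21964944 to 21965194, exon with flanking intron). Levels were 13.5, 17.0, 37.7 and 58.8 in high gain/high intake, 38.9, 52.3, 38.8 and 47.8 in high gain/low intake, 40.9, 47.8, 25.8 and 14.5 in low gain/high intake, and 37.0, 25.8, 90.9 and 29.3 in low gain/low intake. The highest library, replicate 3 of low gain/low intake, was one of those low in first exons.

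ACSS1, the mitochondrial acetyl-CoA synthetase gene, was read in exon 16 at its end (chromosome 13, 43028808 to 43030251), with an estimated 3.92 to 28.5 reads per library. Levels were 0.73, 0.39, 0.29 and 0.43 in high gain/high intake, 0.43, 0.27, 0.27 and 0.34 in high gain/low intake, 0.48, 0.59, 0.41 and 0.15 in low gain/high intake, and 0.55, 0.44, 0.11 and 0.56 in low gain/low intake. All of its 15 exon regions had a mean between 0.045 and 0.403. The groups overlapped, and each of its estimates in the 4 comparisons was smaller than its error.

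ACSS2, the cytosolic synthetase gene, was read in a region over exons 14 to 18 (chromosome 13, 64837114 to 64841525). Levels were 6.03, 7.29, 4.67 and 4.19 in high gain/high intake, 7.02, 2.56, 6.17 and 9.83 in high gain/low intake, 7.52, 8.35, 4.33 and 6.78 in low gain/high intake, and 6.72, 5.18, 2.21 and 7.16 in low gain/low intake. In these regions ACSS2 exceeded ACSS1 in every library, by 8.26-fold to 45.2-fold with a median of 14.9-fold.

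ACACA, the acetyl-CoA carboxylase gene, was read in exon 54 (chromosome 19, 13761067 to 13761238), where the highest library held an estimated 30.7 reads. Levels were 3.46, 3.57, 3.35 and 0.41 in high gain/high intake, 5.21, 0, 0.56 and 2.19 in high gain/low intake, 3.40, 2.99, 4.12 and 1.25 in low gain/high intake, and 7.59, 5.11, 0 and 2.53 in low gain/low intake. Both libraries at 0 were among the 5 low in first exons.

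ECHS1, the enoyl-CoA hydratase gene, was read in exon 8 at its end (chromosome 26, 25864431 to 25866585). Levels were 71.0, 95.6, 70.1 and 63.8 in high gain/high intake, 100.3, 43.7, 60.9 and 93.5 in high gain/low intake, 89.9, 105, 110.1 and 85.4 in low gain/high intake, and 123, 112, 29.9 and 114 in low gain/low intake. The 4 lowest libraries were all among the 5 low in first exons.

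**Figure D1:**
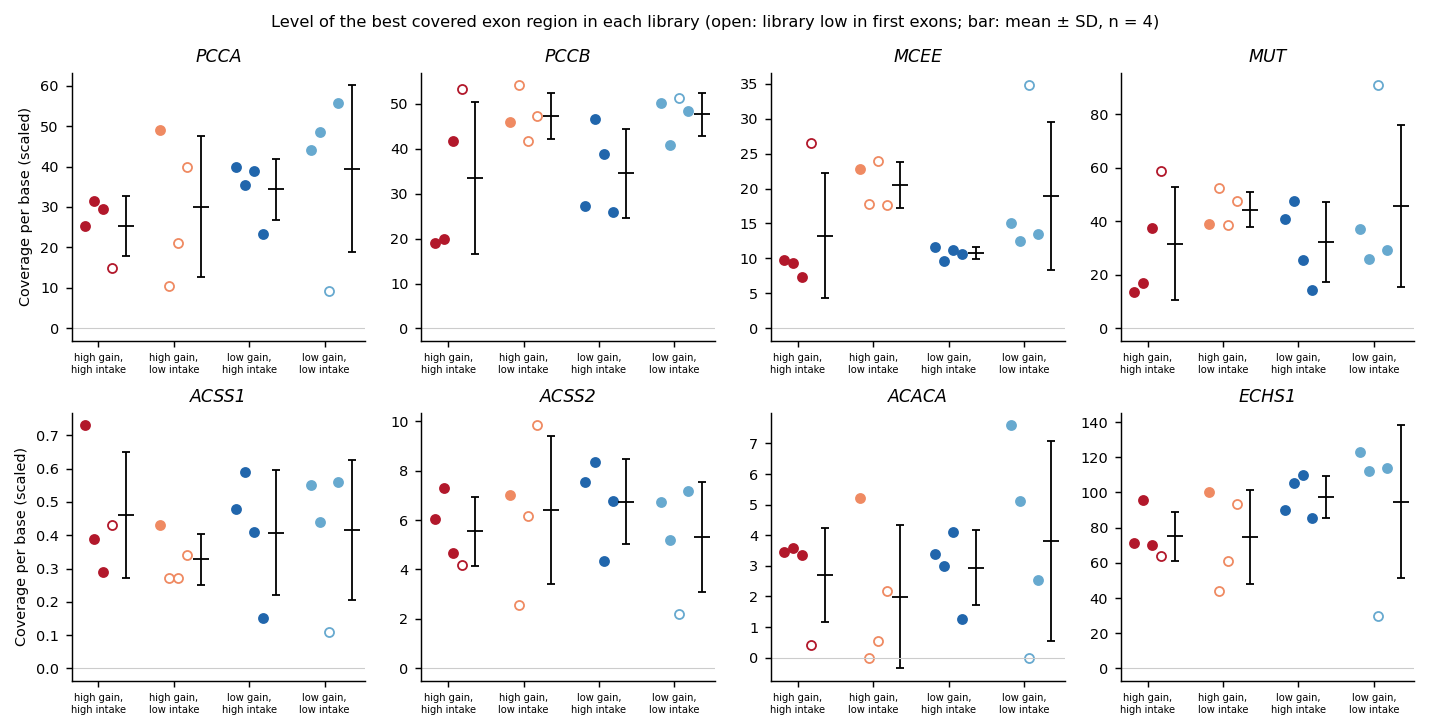
Level of each gene in the 16 libraries, as scaled coverage per base of its best covered exon region, by group; open points are the 5 libraries low in first exons, and bars give the mean ± SD of 4 animals. Open points lie high in PCCB, MCEE and MUT and mostly low in PCCA, ACACA and ECHS1 (ECHS1 at 29.9 in low gain/low intake replicate 3).

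The 5 libraries low in first exons stood apart in opposite directions for different genes. All 5 lay above the median of the other 11 libraries for PCCB, MCEE and MUT, and all 5 below it for ACSS1, ACACA and ECHS1. Mean MUT was 57.7 in these 5 and 29.8 in the other 11, and mean ECHS1 was 58.4 and 97.9. Of the 9443 tested genes, 50.2% had a higher mean in these 5 libraries, 19.5% had all 5 below every other library and 3.16% had all 5 above.

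Within a gene, exons also moved in opposite directions between these libraries. In PCCB, exon 12 was at 0.08 in the high gain/high intake library low in first exons, at 0.06, 1.09 and 2.33 in the 3 such libraries of high gain/low intake, and at 0.07 in that of low gain/low intake, against 3.66 to 10.9 in the other 11 libraries. Exon 10 of the same gene averaged 49.5 in these 5 libraries and 36.8 in the other 11, and the end of the gene in exon 15 averaged 8.65 and 6.61. Exons 13 and 14 were also thin, averaging 7.03 and 17.9 in the 5 libraries and 23.2 and 39.1 in the other 11. With exon 1, these made 4 of 15 PCCB regions under 0.5 of the mean of the other 11.

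In PCCA, exon 18 was covered almost as well as exon 22 (means 30.8 and 32.3) and went the other way. Exon 22 averaged 19.1 in the 5 libraries and 38.3 in the other 11, while exon 18 averaged 34.6 and 29.1. High gain/high intake replicate 4 was the highest library for exon 18 (43.6) and the third lowest for exon 22 (14.9).

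In ACACA, exon 56, the 2824-base end of the gene, was at 0.03 to 0.47 in the 5 libraries and at 1.56 to 4.36 in the other 11. Its exon 43 averaged 2.77 in the 5 libraries and 1.46 in the other 11. In MUT, 9 of 12 exon regions had the higher mean in the 5 libraries (ratios up to 2.20), with exon 1 lowest at 0.263. The first exons of PCCA, PCCB, MCEE and ACSS2 had ratios of 0.0432, 0.0260, 0.0230 and 0, and the region of exons 1 and 2 of ECHS1 had 0.0928. Intron-only regions held 22.2% to 42.2% of the ACACA bases in the 5 libraries and 6.37% to 16.7% in the other 11, while for MCEE and ECHS1 they held under 2% everywhere.

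**Figure D2:**
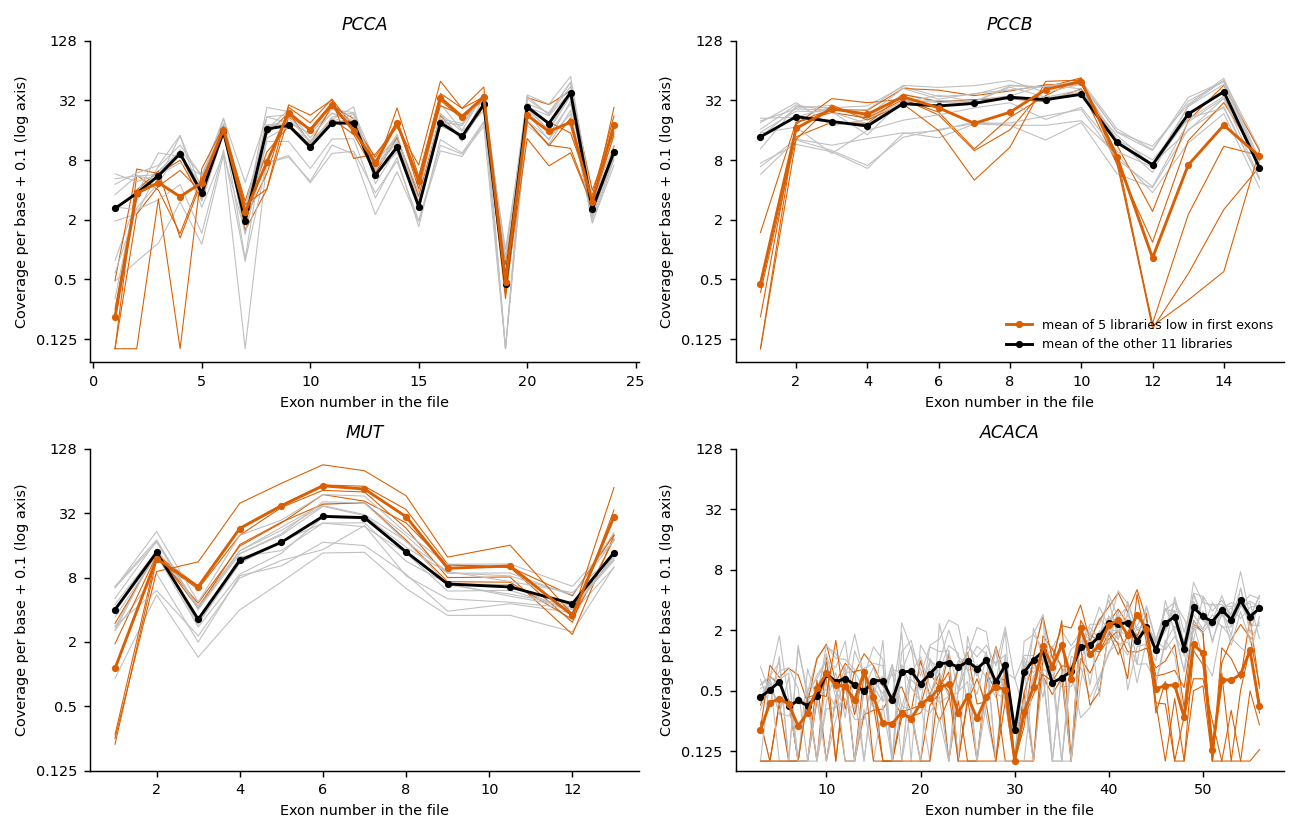
Coverage per base plus 0.1 (log axis) against exon number for PCCA, PCCB, MUT and ACACA; thin lines are libraries, thick lines the mean of the 5 libraries low in first exons (orange) and of the other 11 (black). In PCCB the orange line drops at exon 1 and from exon 12 to exon 14 (0.726 against 7.07 at exon 12) and lies above the black line at exon 10, and in MUT it lies above from exon 3 to exon 11.

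For intake, the 8 high-intake animals were set against the 8 low-intake animals on log2(level + 0.1), each group weighing equally. With all 16 libraries, no gene of the 8 passed, and neither did any of the 9443 (limma, Benjamini-Hochberg adjusted p under 0.05, 0% called). Before adjustment 782 genes (8.28%) had p under 0.05 with limma, and 774 without its trend and robust options. The propionate genes MCEE, PCCB and MUT had negative estimates. MCEE averaged 12.0 ± 6.01 with high intake and 19.7 ± 7.29 with low intake (log2 -0.74, SE 0.27, unadjusted p = 0.0141, limma adjusted p = 0.528), with 7 of 8 high-intake libraries below the low-intake median. PCCB averaged 34.1 ± 12.8 and 47.5 ± 4.59 (log2 -0.57, SE 0.22, unadjusted p = 0.0227, limma adjusted p = 0.528), also with 7 of 8 below. These 2 of 8 genes were lower with unadjusted p under 0.05, against 5.81% of all tested genes. The intake groups overlapped for all 8 (0.0741% of tested genes had none). MUT averaged 32 ± 16.9 and 45.1 ± 20.4 (log2 -0.58, SE 0.36). PCCA, in its best covered region, was at log2 -0.01 (SE 0.39). All 8 of its high-intake libraries lay below the low-intake median of 42.0, but that median fell in a gap. The low-intake libraries with thin first exons had 9.37 to 39.9 and the other low-intake libraries 44.1 to 55.7. How many tested genes were split in this way was not computed. With the mean of all exon regions in these 16 libraries, PCCA was at -0.41 (SE 0.19) and MCEE at -0.62 (SE 0.20). MUT was then at -0.42 (SE 0.28) and PCCB at -0.31 (SE 0.20). Each of these genes had limma adjusted p = 0.490 there. Of 23 PCCA regions with a mean of at least 1, 20 were lower and 3 higher at high intake, and the share over all exon regions was not computed.

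The acetate genes and ECHS1 had positive estimates, each smaller than its error. They were 0.18 (SE 0.32) for ACSS1, 0.17 (SE 0.30) for ACSS2, 0.92 (SE 0.96) for ACACA and 0.15 (SE 0.28) for ECHS1. Of the 5 libraries with thin first exons, 4 were from low-intake animals. Without those 5 libraries, 7 libraries of high and 4 of low intake remained, and high gain/low intake was then represented by 1 animal. In these 11 libraries all 8 genes had negative intake estimates (median log2 -0.57), as did 65.9% of all tested genes (median -0.13). MCEE was at -0.86 (SE 0.15), PCCB at -0.67 (SE 0.27) and ACACA at -0.67 (SE 0.38). PCCA, in its best covered region, was at -0.66 (SE 0.18). PCCA thus moved from near 0 and ACACA changed sign. Each group weighs equally, so the high-gain part of these estimates rests on the 1 animal of high gain/low intake. For MCEE that animal had 22.8, against 7.41 to 9.78 in the high gain/high intake libraries kept. Within low gain, mean MCEE was 10.8 at high and 13.7 at low intake. The errors assume that this animal varies like the other groups, and no p is given. When the fit to all 16 libraries was adjusted for the first-exon index, all 8 estimates were again negative (median -0.25, against -0.05 over all tested genes, 57.9% of them negative).

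**Figure D3:**
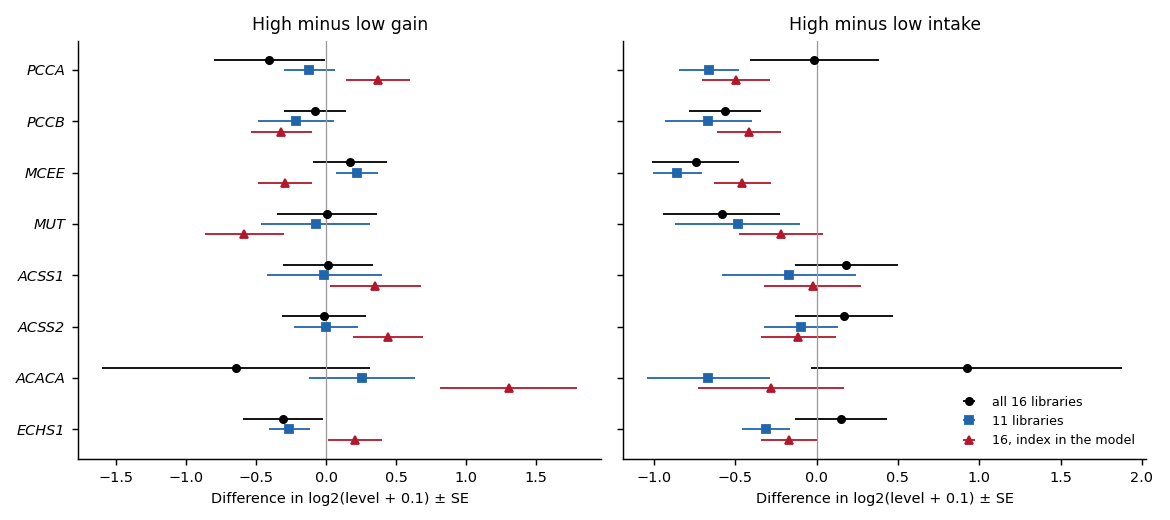
Difference in log2(level + 0.1) ± SE of the limma fit for gain (left) and intake (right), with all 16 libraries (black), without the 5 libraries low in first exons (blue) and adjusted for the first-exon index (red). At right, all blue and red points lie below 0 (MCEE at -0.86 and -0.46), while black points lie on either side.

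The values in the 11 libraries show what these estimates rest on. In MCEE the 7 high-intake libraries spanned 7.41 to 11.6 and the 4 low-intake libraries 12.5 to 22.8, with no overlap. PCCA was at 23.3 to 39.8 and 44.1 to 55.7, also with no overlap. These 2 of 8 genes compare with 1.29% of all tested genes whose high-intake libraries all lay lower, and 0.159% whose high-intake libraries all lay higher. PCCB (19.1 to 46.6 and 40.7 to 50.2), ECHS1 (70.1 to 110.1 and 100.3 to 123) and ACACA (1.25 to 4.12 and 2.53 to 7.59) overlapped. Within low gain, 4 high-intake animals and 3 low-intake animals were left, and 3 of 8 genes did not overlap, against 7.86% of all tested genes in that direction and 2.63% in the other: PCCA (23.3 to 39.8 and 44.1 to 55.7), MCEE (9.63 to 11.6 and 12.5 to 15.1) and ECHS1 (85.4 to 110.1 and 112 to 123). These non-overlapping sets were looked for after the values had been seen. Mean levels within low gain were lower at high intake for 6 of 8 genes and for 62.3% of all tested genes. MUT (32.2 at high and 30.7 at low intake) and ACSS2 (6.7 and 6.4) went the other way.

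The same comparison was made over the exon regions of the 8 genes. Of 80 regions with a mean of at least 1, 29 had a higher and 51 a lower mean log2 level at high intake with all 16 libraries. Within PCCB, exon 10 was at log2 -0.57 while exons 12, 13 and 14 were at 0.87, 0.80 and 0.73. Without the 5 libraries, 75 of the 80 regions were lower at high intake (median -0.53). Of all tested genes, each by its best covered region, 65.9% were negative there, and the share over all exon regions was not computed. PCCA, ACACA and PCCB gave 23, 19 and 15 of the 80 regions and ACSS1 gave 0. Regions of 1 gene share their reads' source and were not tested. The 8 stromal markers summed to 207 to 430 (median 268) at high and 258 to 1191 (median 429) at low intake. The epithelial markers summed to 3177 to 5616 (median 3824) and 1630 to 4961 (median 4272). Both ranges overlapped between intakes. The highest stromal and the lowest epithelial sum were both in low gain/low intake replicate 3, one of the 5 libraries. In the other 11 libraries the stromal markers summed to 207 to 457. The part of these markers in the intake differences was not tested.

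**Figure D4:**
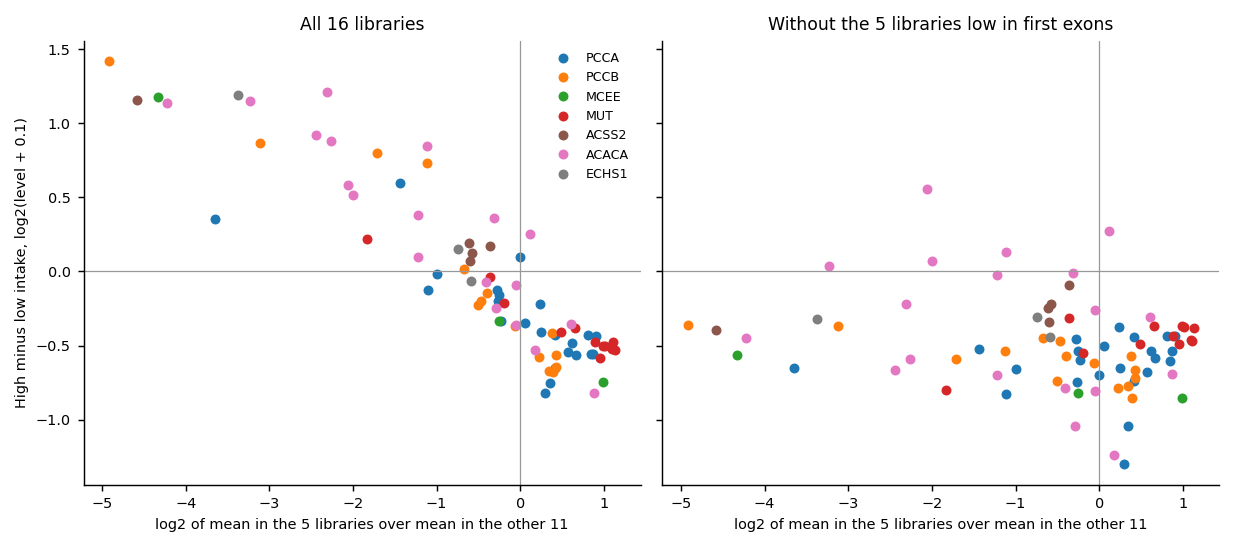
High minus low intake in log2(level + 0.1) for 80 exon regions against the log2 ratio of their mean (plus 0.1) in the 5 libraries low in first exons to that in the other 11, with all 16 libraries (left) and without the 5 (right). Since 4 of these 5 libraries are of low intake, the axes at left share them and no relation is read from that panel. At right 75 of 80 lie below 0, where 65.9% of all tested genes, each by its best covered region, were also negative.

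Gain was compared as both high-gain groups minus both low-gain groups. None of the 8 genes and none of the 9443 passed (limma, 0% called). With unadjusted p under 0.05 there were 0 of the 8 and 499 genes (5.28%, of which lower 4.31% of tested genes), or 515 without limma's trend and robust options. ECHS1 averaged 74.9 ± 19.8 with high gain and 96.2 ± 29.5 with low gain (log2 -0.31, SE 0.28, limma adjusted p = 0.847), and all 8 high-gain libraries lay below the low-gain median of 108. How many tested genes were split this way was not computed. The gain groups overlapped for all 8 genes (0.0318% of tested genes had none). PCCA averaged 27.7 ± 12.7 and 36.9 ± 14.6 (-0.40, SE 0.39), and ACACA 2.34 ± 1.87 and 3.37 ± 2.33 (-0.64, SE 0.96). PCCB (-0.08), MCEE (0.17), MUT (0.01), ACSS1 (0.01) and ACSS2 (-0.01) had estimates below their errors of 0.22 to 0.36. Of the 5 libraries with thin first exons, 4 were from high-gain animals. Without the 5 libraries ECHS1 was at -0.26 (SE 0.15) and PCCA at -0.12, and all 8 genes overlapped between gains (0.921% of tested genes lay wholly lower and 0.159% wholly higher at high gain). Without low gain/low intake replicate 3 alone, ECHS1 was at -0.55. The 6 endothelial markers summed to 8.13 to 17.8 (median 13.1) at high gain and 18 to 27.0 (median 22.5) at low gain. The smooth muscle markers had medians of 16.0 at high and 39.2 at low gain, and the stromal markers 277 and 418. Their part in the gain differences was not tested. Scaling to the total over nuclear exons, which leaves out mitochondrial reads (8.75% to 28.0% of bases), raised the median gain difference of all genes by 0.12 and reversed PCCB (0.05) and ACSS2 (0.11).

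High gain/low intake was set against low gain/high intake, one of the pairs of groups that differ in both traits, 4 against 4 animals. MCEE was at 17.7 to 23.9 and 9.63 to 11.6, means 20.5 ± 3.27 and 10.8 ± 0.872 (log2 0.91, SE 0.38, unadjusted p = 0.0289, limma adjusted p = 0.368). The groups did not overlap for MCEE, which held for 29% of all tested genes in this comparison. MCEE was the only one of the 8 with unadjusted p under 0.05, against 4.11% of tested genes higher and 9.35% lower. Of the libraries with thin first exons, 3 were in high gain/low intake and none in low gain/high intake. The single other animal of high gain/low intake had 22.8 for MCEE. Without the 5 libraries the MCEE difference was 1.08 (SE 0.24 from the spread of the other groups, since high gain/low intake then held 1 animal, assumed to vary like them), and after adjustment for the first-exon index the difference was 0.17 (SE 0.28). PCCB and MUT had estimates of 0.49 (SE 0.31) and 0.59 (SE 0.51), and ACACA, ECHS1, PCCA, ACSS2 and ACSS1 of -1.57, -0.46, -0.39, -0.18 and -0.17 with errors of 0.40 to 1.35. None of the 9443 genes passed (limma, 0% called), while 1271 had unadjusted p under 0.05 (13.5%), or 1272 without trend and robust options.

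The gain difference at high intake minus that at low intake did not pass for any of the 8 or of the 9443 genes (limma, 0% called, 49 genes or 0.519%, with 0.371% lower, at unadjusted p under 0.05, and 52 without trend and robust options). With all 16 libraries, estimates for the 8 ran from -0.51 (ACSS2, SE 0.60) to 0.57 (ACACA, SE 1.91). None of the 8 then had unadjusted p under 0.05. Without the 5 libraries, which leaves 1 animal in high gain/low intake, MCEE was at -1.02 and MUT at -0.86. After adjustment for the first-exon index MCEE was at -0.03 and MUT at -0.14.

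Other genes of the pathways were taken from 3 lists by function. None passed the adjusted threshold in any of the 4 comparisons with all 16 libraries. After adjustment for the first-exon index 3 of 15 propionate, 2 of 17 acetate and 0 of 15 short-chain oxidation genes passed for gain (limma). Of all 9443 tested genes 703 passed in that fit. Of 15 tested genes around propionate (succinyl-CoA ligase subunits, vitamin B12 handling, biotinidase and others), 10 had negative intake estimates (median log2 -0.17, against -0.01 over all tested genes), and 13 in the 11 libraries (median -0.28 against -0.13). Negative estimates made up 50.4% of all tested genes with 16 libraries and 65.9% in the 11 libraries. MMAA, whose product guards the loading of the mutase with its cofactor, averaged 6.16 ± 2.64 with high and 9.34 ± 2.1 with low intake (-0.65, SE 0.21, limma adjusted p = 0.528). MMAA was the only one of the 15 with unadjusted p under 0.05, against 5.81% of all tested genes lower at that threshold. SUCLG2, a subunit of the ligase that uses succinyl-CoA, averaged 101 ± 53.7 and 159 ± 93.4, and MMACHC, of cobalamin processing, 4.72 ± 0.746 and 5.85 ± 0.977. MMAA and SUCLG2 averaged 11.1 and 215 in the 5 libraries with thin first exons and 6.24 and 91.3 in the other 11.

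Of 15 tested genes of short-chain oxidation, 11 had negative intake estimates (median -0.41), 5 of them with unadjusted p under 0.05. All 15 were negative in the 11 libraries (median -0.51). Over all tested genes 50.4% were negative with 16 libraries (median -0.01, 5.81% lower with unadjusted p under 0.05) and 65.9% in the 11 libraries (median -0.13). HADH, which encodes the dehydrogenase that acts after ECHS1, averaged 294 ± 109 with high and 431 ± 110.1 with low intake (-0.59, SE 0.23). ACAT1, the mitochondrial acetoacetyl-CoA thiolase gene, averaged 75.4 ± 24.3 and 121 ± 25.2 (-0.73, SE 0.22), and ETFA, of the electron transfer flavoprotein, 98.9 ± 29.6 and 142 ± 25.1 (-0.56, SE 0.19). Each had limma adjusted p = 0.528. In the 5 libraries with thin first exons HADH, ACAT1 and ETFA averaged 484, 126 and 156, against 307, 85.1 and 105 in the other 11.

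Of 17 tested genes around acetate, 11 had positive intake estimates (median 0.10) and 7 in the 11 libraries (median -0.11, against -0.13 over all tested genes). Over all 9443 genes, 4681 were positive with 16 libraries and 3224 in the 11 libraries. FASN, the fatty acid synthase gene downstream of ACACA, averaged 7.14 ± 3.19 with high and 4.99 ± 5.63 with low intake (1.54, SE 1.16), SREBF1, a regulator of lipid synthesis genes, 7.85 ± 3.17 and 5.98 ± 5.02 (1.28, SE 0.97), and MCAT, of mitochondrial fatty acid synthesis, 5.69 ± 2.38 and 3.88 ± 3.48 (1.08, SE 0.78). The 5 libraries with thin first exons, 4 of them of low intake, averaged 0.186 for FASN, 2.28 for SREBF1 and 0.84 for MCAT, against 8.74, 9.02 and 6.58 in the other 11. For gain, ACLY, the ATP citrate lyase gene, averaged 12.5 ± 2.19 with high and 9.51 ± 1.17 with low gain (0.38, SE 0.14, unadjusted p = 0.018, limma adjusted p = 0.847), with 8 of 8 high-gain libraries above the low-gain median, and 13.2 in the 5 libraries with thin first exons, where the other 11 spanned 7.92 to 12.6. FASN averaged 3.82 ± 4.16 and 8.32 ± 3.96 and CRAT, the carnitine acetyltransferase gene, 14.6 ± 7.68 and 21.8 ± 7.38 at high and low gain.

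The remaining named genes for gain were 3 from the propionate and 3 from the short-chain oxidation list. MMAA averaged 8.52 ± 3.12 and 6.99 ± 2.47, CD320, a receptor for transcobalamin-bound vitamin B12, 13.6 ± 9.13 and 24.1 ± 11.1, and MLYCD, the malonyl-CoA decarboxylase gene, 5.30 ± 3.96 and 10.4 ± 4.95. ECI1, an enoyl-CoA isomerase gene, averaged 3.60 ± 3.07 and 8.64 ± 4.44, ACADS, the short-chain acyl-CoA dehydrogenase gene, 74.8 ± 63.5 and 162 ± 72.8, and ACADM, its medium-chain counterpart, 18 ± 9.30 and 14.6 ± 13.5. Negative gain estimates were found for 12 of 15 short-chain oxidation, 9 of 17 acetate and 8 of 15 propionate genes, and for 53.9% of all tested genes. Their medians were -0.06, -0.32 and -0.002, against -0.04 over all tested genes. For CD320, MLYCD and ECI1, 8 of 8 high-gain libraries lay below the low-gain median. Like ACLY, they were named for the smallest unadjusted p in their lists. The share of all tested genes split this way was not computed. The 5 libraries with thin first exons, 4 of them of high gain, averaged 4.77 for CD320, 1.68 for MLYCD, 0.706 for ECI1 and 22.8 for ACADS, against 25.3, 10.7, 8.58 and 162 in the other 11.

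In their order over the 16 libraries, PCCB, MCEE and MUT ranked alike (Spearman's rho 0.78 for PCCB with MUT, 0.66 for PCCB with MCEE and 0.63 for MCEE with MUT), and PCCA went with ECHS1 (0.89) and ACACA (0.73). PCCA and PCCB, the subunits of 1 enzyme, had a rho of -0.14. Of the 28 pairs, 15 had a negative rho over 16 libraries, and 1 over the 11 libraries that were not low in first exons, where PCCA with PCCB was at 0.66 and PCCA with MCEE at 0.81. The points share the scaling of the library, and no p is given. The ratio of PCCA to PCCB was 0.183 to 0.844 in the 5 libraries and 0.708 to 1.58 in the other 11.

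**Figure D5:**
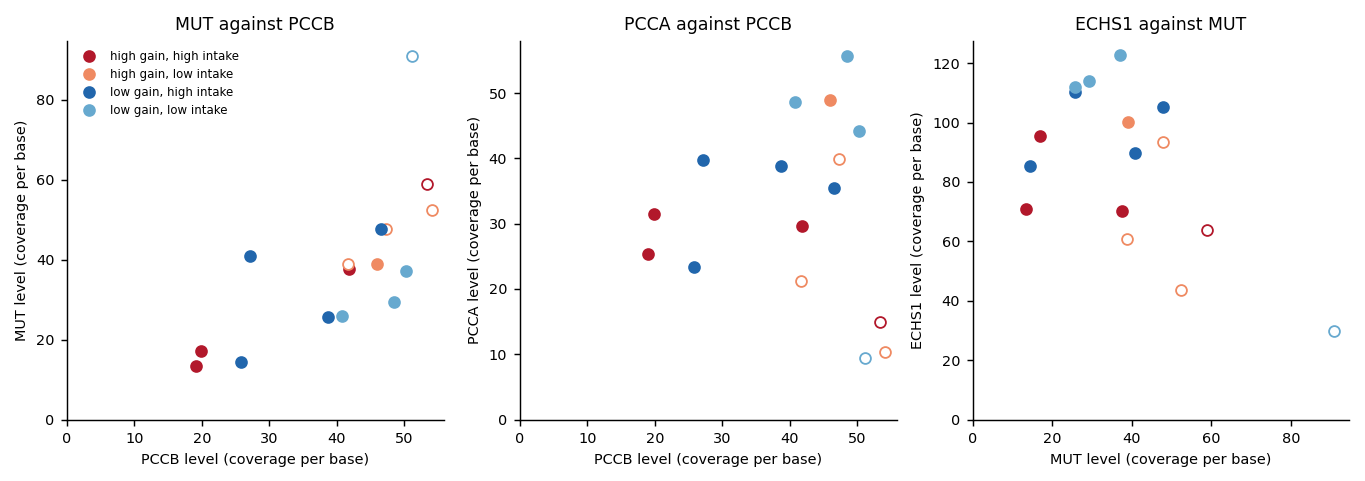
Levels of MUT against PCCB, PCCA against PCCB and ECHS1 against MUT in the 16 libraries (scaled coverage per base), coloured by group, with open points for the 5 libraries low in first exons. Open points lie at the high end of PCCB and MUT and mostly at the low end of PCCA and ECHS1.

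Among 4263 genes with a mean of at least 5, those whose order over the 16 libraries was most like each gene's were PDK3, PJA2 and DHRS7 for MUT (rho 0.98, 0.96 and 0.93, and 0.95, 0.94 and 0.91 over the 11 libraries), and AIFM1, CDC42EP4 and DAPK3 for PCCA (0.95, 0.93 and 0.92). They were CCM2, CTSZ and MRPL49 for ECHS1 (0.95 each), COX16, AGGF1 and HMGN4 for PCCB (0.93, 0.91 and 0.91), CAV2, METAP1 and AHCYL1 for MCEE (0.93, 0.92 and 0.91) and MPRIP, MTA2 and TECR for ACACA (0.92 each). For ACSS1 (WDR74, ABR and POLDIP3) and ACSS2 (HINT2, CUEDC1 and ALDH2) the highest rho was 0.88. For ACSS2 these were between 0.67 and 0.72 over the 11 libraries.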

How the data were processed

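RNA selected with oligo-dT beads was sequenced single-end to 50 bases, per the labels' protocols. TopHat2 2.08b and the genome UMD3.1 were used, per the submitters' processing notes. The aligner settings, annotation release and coverage tool are, in the sources used here, not given. The signal deposited is the average coverage of each region multiplied by a library factor, judged from the values themselves: summed over region lengths, libraries come to between 591 and 596 Mb. Reads were estimated from the value of single-read regions. The number of reads behind a value limits its precision, and no count-based interval was computed. Columns were matched to animals by the number in each title, and replicate numbers follow accession order. The labels do not say how animals were related, so p-values measure the spread between these animals only.

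Of 2351373 regions, 113576 held exons, and 518 that joined exons of more than 1 gene were dropped. A gene's level was its exon region with the highest mean, and 9443 of 11996 genes were tested, those reaching 0.5 in 4 or more libraries. Levels were fitted as log2(value + 0.1) with limma 3.58.1 in R 4.3.3 (trend and robust) on 4 group means, two-sided, with Benjamini-Hochberg adjustment over all genes at 0.05. A fold on this scale understates changes of low genes. The script was tested on simulated data with independent noise for each gene and library. These simulations held no libraries low in first exons, so they do not bear on that split. The index used 1078 genes with at least 6 exon regions, and the largest gap in it separated 5 libraries. The text names all 8 genes, the 3 genes per list with the smallest unadjusted p for gain and for intake, and the 3 genes most like each of the 8 by Spearman's rho. The genes, lists and libraries set apart were chosen with earlier results of these data known. ACSS3, ACOT12 and ACSM1 were under the filter, and HLCS, ACSM3 and ACSM5 were not analysed here. No sequences are shown. The reference table (assembly ARS-UCD2.0) was used for names only, and all 8 symbols matched.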

Additional observations from a re-analysis of the deposited data

Results flagged for a closer look

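In 4 of the 32 sets of 4 animals (8 genes in 4 groups), 1 library lay far from the other 3 by Dixon's test, and chance marks about 1 in 20. MCEE was at 26.5 in high gain/high intake replicate 4, against 7.41 to 9.78 in the other 3 animals. ACACA was at 0.41 in the same library, against 3.35 to 3.57. MCEE was at 34.7 in low gain/low intake replicate 3, against 12.5 to 15.1. ECHS1 was at 29.9 in that library, against 112 to 123. Both libraries are among the 5 low in first exons. The part of that low coverage in these values was not tested.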

How the results depend on the processing

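No paired analysis was possible because animals carry no shared numbers in their labels. Counts of genes passing for gain went from 0 to 58 without the 5 libraries low in first exons and to 703 after adjustment for the first-exon index (598 higher, 105 lower). For intake 2 passed with the mean of all exon regions. For the crossed difference, that between the groups high gain/low intake and low gain/high intake, 2 passed without the 5 libraries, where high gain/low intake is 1 animal assumed to vary like the other groups, and 2 with the index. With 1 library left out the counts ran from 0 to 58 for gain (58 without low gain/low intake replicate 3), from 0 to 1 for intake (1 without high gain/high intake replicate 4) and from 0 to 1 for the crossed difference (1 without low gain/high intake replicate 3). None of the 8 genes passed under any alternative.

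Signs of the 8 genes' uncalled differences turned in 37 cases and held in 215 over the 8 alternatives other than leaving 1 library out, and the cause was not tested. Without the 5 libraries, gain was -0.075 for MUT, -0.012 for ACSS1, 0.0028 for ACSS2 and 0.26 for ACACA. Intake was -0.17 for ACSS1, -0.094 for ACSS2, -0.67 for ACACA and -0.31 for ECHS1. The crossed difference was 0.54 for PCCA, 0.16 for ACSS1, 0.10 for ACSS2, 0.92 for ACACA and 0.047 for ECHS1. With the index, gain was 0.37 for PCCA, -0.29 for MCEE, -0.58 for MUT, 0.44 for ACSS2, 1.30 for ACACA and 0.21 for ECHS1. Intake was -0.025 for ACSS1, -0.11 for ACSS2, -0.28 for ACACA and -0.17 for ECHS1. The crossed difference was 0.87 for PCCA, -0.37 for MUT, 0.38 for ACSS1, 0.56 for ACSS2, 1.58 for ACACA and 0.38 for ECHS1. With the mean of all exon regions, PCCA was at 0.0098 for gain, 0.15 for the interaction and 0.42 for the crossed difference, MCEE at -0.036 and MUT at -0.066 for gain. ACSS1 was not tested there. With a pseudocount of 1, ACSS1 was at -0.013 for gain. Scaled to nuclear exons, PCCB was at 0.045 and ACSS2 at 0.11 for gain, and the median of all genes moved by 0.15 for the crossed difference and by -0.11 for the interaction. Of the list genes, 9 turned, all with the index: for gain MMAA at -0.064, CD320 at 1.04 (the only one named that then passed), MLYCD at 1.27, CRAT at 0.18, FASN at 0.69, ECI1 at 0.89, ACADS at 0.83 and ACADM at -0.33, and FASN at -0.060 for intake.

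With 1 library left out, gain ran from -0.21 to 0.032 for PCCB, -0.028 to 0.34 for MCEE, -0.18 to 0.20 for MUT, -0.18 to 0.10 for ACSS1 and -0.20 to 0.18 for ACSS2. Intake ran from -0.31 to 0.14 for PCCA, -0.010 to 0.34 for ACSS1, -0.021 to 0.30 for ACSS2 and -0.094 to 0.24 for ECHS1, and kept its sign from -0.94 to -0.58 for MCEE, -0.70 to -0.45 for PCCB and -0.77 to -0.39 for MUT. The crossed difference ran from -0.70 to 0.041 for PCCA, -0.48 to 0.010 for ACSS1 and -0.44 to 0.20 for ACSS2. The interaction ran from -0.55 to 0.47 for PCCA, -0.40 to 0.091 for PCCB, -0.52 to 0.085 for MCEE, -0.67 to 0.056 for MUT, -0.51 to 1.96 for ACACA and -0.39 to 0.33 for ECHS1.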
